A study of Mus musculus with 12 samples.

Results

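Mouse hepatocytes taken 2 days after removal of 70% of the liver under an antibody against Gr1 were compared with hepatocytes taken 1 day after the same operation under an isotype antibody. The question is whether the later day with the depleting antibody resembles the earlier day without it. All 3 libraries labelled anti-Gr1 at post-operative day (POD) 2 and all 3 isotype libraries of POD1 were used, 6 of the 12 libraries of the series, over every gene. The 3 isotype libraries of POD2 give the level that liver regeneration reached by then without depletion. All mice were wild-type BALB/C males aged 8 weeks, and each antibody was given intraperitoneally at 200 µg in 100 µl, once 2 days before surgery and again with it. The labels state no number of animals and do not say whether libraries of a group came from separate mice. p-values therefore cover the spread among the samples alone, and that spread may be technical. The hepatocytes came from collagenase perfusion, a 70 µm filter and a slow spin, steps that enrich these cells and leave others in the pellet.

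After part of the liver is removed, the remaining hepatocytes leave quiescence, copy their DNA and then divide. Cytokines such as IL-6 and TNF prepare them for this, and ligands of the receptors Met and Egfr carry them through G1. Genes of DNA replication are induced at the entry to S phase, while genes of the mitotic spindle, the centromere and the cyclin B kinase follow in G2. Gr1 is a granulocyte antigen carried by Ly6g, with cross-binding to Ly6c, and the stated aim of the antibody was to deplete granulocytic myeloid-derived suppressor cells.

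The Ly6g transcript went against the label. For Ly6g (ENSMUSG00000022582, chromosome 15 of GRCm38, bases 75155240 to 75159126) the values were 27.1, 31.5 and 54.2 CPM (a gene's share of a library's counts, here with TMM-scaled library sizes) in the libraries labelled anti-Gr1 POD2, 1.0, 1.89 and 2.03 CPM in isotype POD1 and 0.522, 0.767 and 0.239 CPM in isotype POD2. Every library labelled anti-Gr1 POD2 lay above every isotype library, while the label names removal of cells that carry this transcript. Each direction below therefore rests on the labels as given. Total counts per library in the series ran from 13189392 to 15822043. Within isotype POD2 and within anti-Gr1 POD2, replicates 1 and 2 were near-identical (chi-square per gene 1.62 and 5.27, where counting noise alone gives about 1) and were summed to 1 sample. That leaves n = 2 for each POD2 group and n = 3 for isotype POD1. Replicate 3 of anti-Gr1 POD2 was near-identical to replicate 3 of anti-Gr1 POD1 (3.51), a library that carries the other day. The remaining 63 pairs gave 58.3 or more. Whether replicate 3 carries the right day was not tested, and results without it are given only where stated. Without it, 1 sample is left in the group, which is then assumed to vary like the other groups.

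Transcripts of the pancreas, which hepatocytes do not make, were also present. The 41 tested genes of acinar cells took 3.95%, 10.9% and 0.0181% of the counts of the isotype POD1 libraries, 16.3%, 17.2% and 3.24% in anti-Gr1 POD2 and 8.21%, 8.12% and 31% in isotype POD2. With these genes removed before scaling, 25 genes were called higher and 4 lower in the main comparison, against 26 and 4 with them. Alb, which encodes albumin, was present in every library and ranged from 3585 to 77127 CPM over the 9 libraries. In isotype POD1 it stood at 3585 to 5406 CPM. There the 21 tested markers of sinusoidal endothelium together summed to more, 11492 to 14235 CPM. How pure the hepatocytes were was not tested.

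Over all genes, the hepatocytes labelled anti-Gr1 POD2 lay closer to isotype POD1 than to isotype POD2. The root mean square difference in log2 CPM averaged 0.954 to the isotype POD1 samples (range 0.842 to 1.07) and 1.23 to the isotype POD2 samples (1.07 to 1.42). The isotype days themselves differed by 1.4 (1.2 to 1.6). Samples of a group differed from each other by 0.623 to 0.888 within isotype POD1 and by 0.707 within anti-Gr1 POD2. The distance to isotype POD1 was therefore larger than most of the spread within groups, and the ranges to the isotype days met at their edges. Replicates 1 and 2 of anti-Gr1 POD2, taken as separate libraries, lay at 0.839 to 1.09 from the isotype POD1 libraries. They lay at 1.08 to 1.32 from the isotype POD2 libraries. No test was made of these distances, which share samples.

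Of the 15647 genes tested, 26 were called higher (0.166%) and 4 lower (0.0256%) at an adjusted p under 0.05, with libraries labelled anti-Gr1 POD2 set against isotype POD1. At an unadjusted p under 0.05 there were 2293. The isotype course from POD1 to POD2 gave 1979 higher (12.6%) and 3079 lower (19.7%). On the same day, anti-Gr1 POD2 against isotype POD2 gave 2518 higher (16.1%) and 1442 lower (9.22%). These comparisons share samples and are given side by side. The median size of the log2 difference was 0.322 between anti-Gr1 POD2 and isotype POD1, 0.658 along the isotype course and 0.636 on the same day. The median signed change over all genes was 0.01, -0.06 and 0.10 in the same order. A further contrast set anti-Gr1 POD2 against the halfway point between the isotype days on the log2 scale. It placed 543 genes above (3.47%) and 174 below (1.11%). Without replicate 3 of anti-Gr1 POD2, 47 lay above and 0 below, so every call below the halfway point given here was lost without that library.

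The count of 30 genes depended strongly on the fit and on the libraries in it. With every library kept separate, 233 genes were higher (1.52%) and 185 lower (1.21%). In a fit of only the 3 groups discussed here, with the same summed pairs, 828 were higher (5.41%) and 257 lower (1.68%), and all 30 genes were among them. That fit leaves out the libraries labelled anti-Gr1 POD1, which in the main fit help set the spread behind every interval and p-value. Their pairs differed by a chi-square per gene of 292 to 406, against 58.3 to 147 within isotype POD1. Without replicate 3 of anti-Gr1 POD2, 10 genes were higher (0.0611%), 0 were lower in edgeR, and 1266 had an unadjusted p under 0.05. Genes that miss the threshold below are thus given with the 95% interval of their difference, since a missed threshold does not show equal levels. Unscaled libraries gave 18 higher and 7 lower genes, or 72.0% higher against 86.7%, and DESeq2 gave 61.1% higher. Of the calls along the isotype course 39.1% were higher, and 8.19% without scaling. On the same day 63.6% were higher, 87.8% without scaling, 53.3% with DESeq2 and 52.3% without acinar genes. Of the calls against the halfway point 75.7% lay above, 47.4% with DESeq2 and 62.1% without acinar genes.

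DNA replication genes in the libraries labelled anti-Gr1 POD2 stood near their isotype POD1 level and well short of isotype POD2. Of 42 genes for origin licensing, the replication fork and nucleotide supply, 0 passed the test in either direction against isotype POD1, with a median log2 fold change of 0.02 beside 0.01 over all genes. The sign of so small a median changed in 9 of 12 alternatives, to -0.08 without replicate 3 and to -0.25 without scaling, where the median of all genes was -0.25. Along the isotype course 31 of the 42 rose, with a median of 1.60, where 12.6% of all genes rose. Against the halfway point 0 lay above and 11 below, where 1.11% of all genes lay below. The mean log2 CPM of the list was 3.83, 3.84 and 3.99 in the anti-Gr1 POD2 libraries, 3.91, 4.03 and 3.53 in isotype POD1 and 5.30, 5.34 and 5.19 in isotype POD2. Every anti-Gr1 POD2 library sat within the isotype POD1 range.

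Tyms, thymidylate synthase, which makes dTMP for DNA synthesis, lay close to its isotype POD1 level. It stood at 12.6, 13.2 and 12.7 CPM in anti-Gr1 POD2, at 15.6, 13.5 and 13.4 CPM in isotype POD1 and at 83.3, 82.1 and 83.5 CPM in isotype POD2. The libraries labelled anti-Gr1 POD2 lay just under the lowest isotype POD1 value and far from isotype POD2 (log2 fold change -0.15 ± 0.20 SE, 95% interval -0.60 to 0.31, adjusted p = 0.743 against isotype POD1). It lay below the halfway point by a log2 difference of -1.42 (adjusted p = 0.0113). Rfc5, a subunit of the clamp loader, stood at 12.5, 12.5 and 15.1 CPM, at 16.1, 15.1 and 15.7 CPM and at 55.6, 56 and 50.6 CPM in the same order. Against isotype POD1 it gave log2 fold change -0.18 ± 0.13 SE, 95% interval -0.49 to 0.13, adjusted p = 0.536, and against the halfway point log2 fold change -1.06, adjusted p = 0.00671. Pcna, the sliding clamp, stood at 44.2, 51.1 and 50.7 CPM, at 57.1, 66.9 and 44.8 CPM and at 101, 102 and 95.6 CPM (log2 fold change -0.19 ± 0.18 SE, 95% interval -0.59 to 0.21, adjusted p = 0.612). The intervals of these 3 genes stay within 1 log2 unit of the isotype POD1 level on either side.

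Other replication genes held more room. Mcm5, a subunit of the replicative helicase, stood at 40.9, 39.1 and 49.1 CPM in anti-Gr1 POD2 against 47.2, 49.9 and 29.4 CPM in isotype POD1 and 151, 157 and 154 CPM in isotype POD2 (log2 fold change 0.08 ± 0.24 SE, 95% interval -0.48 to 0.63, adjusted p = 0.892). Pole, the catalytic subunit of the leading-strand polymerase, stood at 8.33, 5.45 and 9.17 CPM against 5.79, 4.06 and 3.62 and 36.1, 36.7 and 29 CPM (log2 fold change 0.82 ± 0.27 SE, 95% interval 0.20 to 1.45, adjusted p = 0.268). Tk1, thymidine kinase, stood at 23.4, 23.3 and 27.4 CPM against 12.3, 18.8 and 12.9 and 85.6, 91.1 and 88 CPM (log2 fold change 0.79 ± 0.28 SE, 95% interval 0.16 to 1.42, adjusted p = 0.275). Tk1 did not overlap with isotype POD1 and did not pass the test. Fen1, the flap endonuclease of lagging strands, was low throughout, at 1.95, 2.11 and 2.26 CPM against 1.06, 1.61 and 0.491 and 4.09, 6.98 and 3.82 CPM (log2 fold change 1.03, adjusted p = 0.382). Dnmt1, which keeps DNA methylation during copying, gave 54.3, 41.2 and 56.9 CPM against 45.5, 43.5 and 32.1 and 69.1, 68.2 and 58.1 CPM (log2 fold change 0.37, adjusted p = 0.397).

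Mitotic genes stood a little above isotype POD1 and far below isotype POD2. Of 45 genes of G2, the spindle and the centromere, 0 passed against isotype POD1, with a median log2 fold change of 0.80, and 43 of the 45 estimates were above 0. With every library separate 3 were called higher, and in the fit of 3 groups 15, beside 1.52% and 5.41% of all genes. Along the isotype course 43 rose, with a median of 3.66, where 12.6% of all genes rose. Against the halfway point 0 lay above and 5 below, where 1.11% of all genes lay below. The mean log2 CPM of the list was 3.12, 3.06 and 3.44 in anti-Gr1 POD2, 2.51, 2.66 and 2.23 in isotype POD1 and 5.98, 6.02 and 5.76 in isotype POD2. The anti-Gr1 POD2 libraries thus lay above all isotype POD1 libraries, and replicate 3 was the highest of them. Without replicate 3 the median was 0.59 and 0 passed.

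Promoters are shown for 4 mitotic genes described next, since 43 of the 45 genes of this list rose along the isotype course. The 4 shown hold both motifs marked, while among other mitotic genes named here the windows of Ccnb1 and Cenpe held no TTTGAA and that of Kif2c no CCAAT. Each window runs from 250 bases before to 50 after the RefSeq start (GRCm38.p6): Cdk1 at chr10:69352863-69353162, minus strand; Plk1 at chr7:122159185-122159484, plus strand; Mki67 at chr7:135716330-135716629, minus strand; and Cdc20 at chr4:118437294-118437593, minus strand. Capitals mark CCAAT, the letters of the box bound by NF-Y, and TTTGAA, the letters of the cell-cycle homology region, on either strand (ATTGG and TTCAAA on the other).
Cdk1: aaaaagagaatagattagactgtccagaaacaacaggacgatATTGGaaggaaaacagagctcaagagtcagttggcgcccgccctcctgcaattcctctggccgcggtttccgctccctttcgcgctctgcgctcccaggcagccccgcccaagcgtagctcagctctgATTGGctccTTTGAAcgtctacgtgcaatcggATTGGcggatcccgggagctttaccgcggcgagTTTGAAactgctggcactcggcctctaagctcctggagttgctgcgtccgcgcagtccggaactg
Plk1: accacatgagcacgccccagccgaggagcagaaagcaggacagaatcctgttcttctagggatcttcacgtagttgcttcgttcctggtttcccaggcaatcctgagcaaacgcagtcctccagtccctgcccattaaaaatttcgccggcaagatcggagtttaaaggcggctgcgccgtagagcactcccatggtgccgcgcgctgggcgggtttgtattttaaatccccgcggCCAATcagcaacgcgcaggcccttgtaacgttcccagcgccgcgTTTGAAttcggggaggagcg
Mki67: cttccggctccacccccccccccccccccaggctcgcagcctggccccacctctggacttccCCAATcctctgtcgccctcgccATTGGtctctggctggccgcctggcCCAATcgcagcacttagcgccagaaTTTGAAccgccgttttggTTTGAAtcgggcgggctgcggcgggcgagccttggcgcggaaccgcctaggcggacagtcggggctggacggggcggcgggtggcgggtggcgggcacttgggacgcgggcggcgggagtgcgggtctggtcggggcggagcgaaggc
Cdc20: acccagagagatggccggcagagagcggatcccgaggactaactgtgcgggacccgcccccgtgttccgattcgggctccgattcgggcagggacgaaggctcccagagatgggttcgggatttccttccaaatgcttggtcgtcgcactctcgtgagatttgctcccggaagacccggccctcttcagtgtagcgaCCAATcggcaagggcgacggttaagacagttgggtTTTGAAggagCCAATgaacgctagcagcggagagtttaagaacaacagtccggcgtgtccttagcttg
TTTGAA was found in 26 of 37 matched promoters of the mitosis list (70.3%), in 14.3% of 35 matched replication promoters and in 18.1% of all 27025 RefSeq promoters of this length (12.6% of 11465 matched to tested genes). CCAAT was found in 75.7%, 62.9% and 37.9% of the same sets. A match describes the letters and is not shown to be bound.

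Cdk1 (ENSMUSG00000019942, chromosome 10 of GRCm38, bases 69335146 to 69352938), the kinase that drives entry into mitosis, stood at 15.1, 18.7 and 24.8 CPM in anti-Gr1 POD2, at 14.1, 14.5 and 12.3 CPM in isotype POD1 and at 175, 173 and 174 CPM in isotype POD2. The libraries did not overlap with either isotype day and lay next to POD1 (log2 fold change 0.61 ± 0.28 SE, 95% interval -0.02 to 1.24, adjusted p = 0.351). Against the halfway point Cdk1 was lower (log2 fold change -1.23, adjusted p = 0.0428). Mki67 (ENSMUSG00000031004, chromosome 7 of GRCm38, bases 135689784 to 135716361), the Ki-67 antigen of cycling cells, stood at 41.4, 37 and 51 CPM, at 15.4, 36.7 and 11.5 CPM and at 307, 297 and 288 CPM in the same order. Its values in anti-Gr1 POD2 were above each isotype POD1 value, narrowly so for replicate 2 of isotype POD1 (log2 fold change 1.09 ± 0.50 SE, 95% interval -0.05 to 2.22, adjusted p = 0.354). Plk1, a kinase of spindle assembly, stood at 11.4, 9.55 and 14.4 CPM, at 5.73, 5.47 and 5.77 CPM and at 112, 109.8 and 95.5 CPM (log2 fold change 1.13 ± 0.28 SE, 95% interval 0.49 to 1.77, adjusted p = 0.191). Its interval excludes 0 while its adjusted p misses the threshold; in the fit of 3 groups the adjusted p was 0.00952. Cdc20, the activator of the anaphase-promoting complex, stood at 12.5, 10.4 and 15.4 CPM, at 6.95, 9.81 and 7.37 CPM and at 288, 295 and 269 CPM (log2 fold change 0.73 ± 0.29 SE, 95% interval 0.07 to 1.40, adjusted p = 0.309), and below the halfway point (log2 fold change -1.83, adjusted p = 0.0168).

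The smallest p-values of the list belonged to genes of the spindle checkpoint and centromere. Kif2c, a microtubule depolymerase, stood at 5.14, 6.27 and 7.28 CPM in anti-Gr1 POD2, at 2.45, 3.15 and 3.07 CPM in isotype POD1 and at 49, 51.3 and 51.3 CPM in isotype POD2 (log2 fold change 1.17 ± 0.22 SE, 95% interval 0.67 to 1.67, adjusted p = 0.0996). Bub1b, a checkpoint kinase, stood at 9.81, 9.34 and 12.4 CPM, at 4.84, 5.05 and 3.99 CPM and at 50.3, 47.4 and 38.3 CPM (log2 fold change 1.24 ± 0.24 SE, 95% interval 0.70 to 1.79, adjusted p = 0.106). Both separated anti-Gr1 POD2 from isotype POD1 without overlap and reached only part of the isotype POD2 level. Cenpe, a motor of chromosome alignment, stood at 9.11, 5.05 and 9.32 CPM, at 2.45, 4.27 and 1.84 CPM and at 39.8, 43.9 and 39 CPM (log2 fold change 1.51 ± 0.38 SE, 95% interval 0.65 to 2.37, adjusted p = 0.195). Aurka, the kinase of centrosome maturation, gave 10.2, 7.64 and 12.2 CPM against 7.57, 8.76 and 6.2 and 122, 117 and 117 CPM, with overlap at isotype POD1 (log2 fold change 0.48 ± 0.25 SE, 95% interval -0.08 to 1.05, adjusted p = 0.385) and a place below the halfway point (log2 fold change -1.51, adjusted p = 0.0168). Foxm1, the transcription factor of G2 genes, gave 11, 8.93 and 11.9 CPM against 7.73, 5.4 and 5.16 and 87.2, 85.2 and 77.8 CPM (log2 fold change 0.83 ± 0.37 SE, 95% interval -0.02 to 1.68, adjusted p = 0.347).

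**Figure D1:**
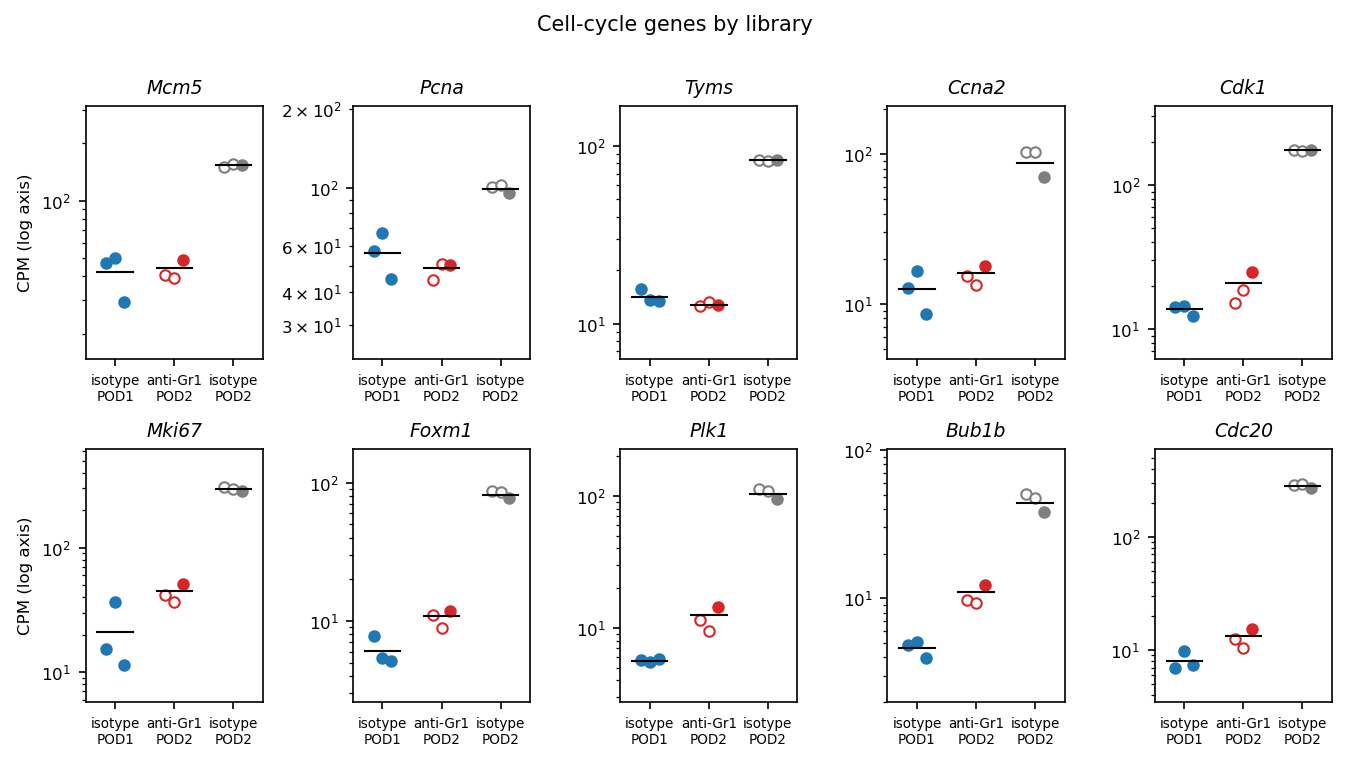
Expression of 10 cell-cycle genes in CPM on log axes that do not start at 0, by library, for isotype POD1 (blue), libraries labelled anti-Gr1 POD2 (red) and isotype POD2 (grey). Open points are libraries summed to 1 sample and lines are group means; for each of the 10 genes the red points lie next to the blue ones and below the grey ones.

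Cyclins and inhibitors of the cycle gave no call against isotype POD1. Ccnd1, cyclin D1 of G1, stood at 44.7, 42.2 and 55.9 CPM in anti-Gr1 POD2, at 58.9, 48.4 and 34.7 CPM in isotype POD1 and at 87, 90.2 and 58.7 CPM in isotype POD2, with overlap at isotype POD1 (log2 fold change 0.07 ± 0.37 SE, 95% interval -0.77 to 0.91, adjusted p = 0.941). Ccna2, cyclin A2 of S phase, stood at 15.3, 13.3 and 17.8 CPM, at 12.7, 16.5 and 8.53 CPM and at 104, 104 and 70.1 CPM (log2 fold change 0.35 ± 0.42 SE, 95% interval -0.61 to 1.31, adjusted p = 0.702). Ccnb1, cyclin B1, the partner of Cdk1, stood at 3.27, 3.2 and 5.39 CPM, at 1.84, 2.24 and 1.35 CPM and at 36.9, 37.8 and 34.2 CPM (log2 fold change 1.24 ± 0.41 SE, 95% interval 0.32 to 2.16, adjusted p = 0.262). Of the 25 p53 targets and cell-cycle inhibitors 0 passed, with a median of -0.06. Cdkn1a, the CDK inhibitor p21, stood at 64.5, 60.1 and 65.2 CPM against 129, 105 and 213 CPM in isotype POD1 and 111, 106 and 117 CPM in isotype POD2. It was thus below both isotype days in every library (log2 fold change -1.23 ± 0.42 SE, 95% interval -2.17 to -0.28, adjusted p = 0.27). Gdf15, a stress cytokine, stood at 20.2, 19.9 and 25.3 CPM against 6.62, 10.3 and 6.39 and 106, 102 and 86.9 CPM (log2 fold change 1.54 ± 0.44 SE, 95% interval 0.54 to 2.55, adjusted p = 0.228). Cdkn2c, the inhibitor p18, gave 10, 8.8 and 12.7 CPM against 9.46, 9.95 and 8.35 and 73.5, 75.5 and 59.1 CPM (log2 fold change 0.25 ± 0.24 SE, 95% interval -0.30 to 0.80, adjusted p = 0.635) and lay below the halfway point (log2 fold change -1.18, adjusted p = 0.0322).

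Priming genes, which come on within hours of surgery, gave no call against isotype POD1. Of the 26 immediate early genes 0 passed, with a median of -0.26. Along the isotype course 15 of them fell, where 19.7% of all genes fell. Myc stood at 68.5, 66.1 and 53.7 CPM in anti-Gr1 POD2, at 71, 77 and 66.6 CPM in isotype POD1 and at 41.8, 39.8 and 64.8 CPM in isotype POD2 (log2 fold change -0.24 ± 0.31 SE, 95% interval -0.94 to 0.46, adjusted p = 0.718). Egr2 stood at 17.8, 17.5 and 15.6 CPM, at 12.9, 10.9 and 7.37 CPM and at 4.44, 5.62 and 4.06 CPM and was above the halfway point (log2 fold change 1.27, adjusted p = 0.0321, and 0.188 without replicate 3). Klf2, a flow-responsive factor of endothelium, stood at 423, 412 and 390.5 CPM, at 630.2, 889 and 769 CPM and at 163, 163 and 181 CPM, between the isotype days in every library (log2 fold change -0.92 ± 0.33 SE, 95% interval -1.67 to -0.16, adjusted p = 0.278). Of the 24 NF-kB and TNF targets 0 passed, with a median of -0.03, and 14 fell along the isotype course. Nfkbia, the inhibitor of NF-kB that NF-kB induces, stood at 281, 266 and 244 CPM, at 667, 658 and 557 CPM and at 219, 211 and 167 CPM (log2 fold change -1.28 ± 0.46 SE, 95% interval -2.33 to -0.23, adjusted p = 0.278). Cxcl2, a neutrophil chemokine, gave 177, 177 and 92.6 CPM against 772, 576 and 421 and 70.5, 68.9 and 34 CPM, and Ccl2, a monocyte chemokine, gave 46.9, 52.8 and 26.9 CPM against 237, 115 and 112 and 24.5, 27.8 and 15.2 CPM. For Nfkbia, Cxcl2 and Ccl2 every anti-Gr1 POD2 library was below every isotype POD1 library, with adjusted p = 0.325 for Cxcl2 and 0.251 for Ccl2. Vcam1, an adhesion molecule, stood at 313, 318 and 484 CPM, at 164, 169 and 364 CPM and at 41.4, 42.6 and 17.3 CPM and was above the halfway point (log2 fold change 2.26, adjusted p = 0.0445, and 0.31 without replicate 3).

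Met, Egfr and Erbb3, growth factor receptors of hepatocytes, stood nearer to isotype POD2. Of 35 ligands and receptors of regeneration 0 passed against isotype POD1, with a median of 0.18. In the fit of 3 groups 8 were called higher and 2 lower, beside 5.41% and 1.68% of all genes. Met, the receptor of hepatocyte growth factor, stood at 56.8, 51.3 and 56.6 CPM in anti-Gr1 POD2, at 18, 8.97 and 12.2 CPM in isotype POD1 and at 75.2, 74.1 and 55.1 CPM in isotype POD2 (log2 fold change 2.08 ± 0.70 SE, 95% interval 0.48 to 3.68, adjusted p = 0.269). Egfr stood at 277, 236 and 438 CPM, at 74.7, 62.4 and 126 CPM and at 622, 617 and 391 CPM (log2 fold change 1.98 ± 0.96 SE, 95% interval -0.20 to 4.17, adjusted p = 0.37). Erbb3, a partner of Egfr-family receptors, stood at 54.5, 47.4 and 63.2 CPM, at 14.1, 8.13 and 14.4 CPM and at 76.1, 74.6 and 64.6 CPM (log2 fold change 2.22 ± 0.58 SE, 95% interval 0.89 to 3.55, adjusted p = 0.21). For all 3 receptors no anti-Gr1 POD2 library overlapped with isotype POD1, and Met and Egfr overlapped with isotype POD2. Wnt2, a ligand made by sinusoidal endothelium, ran the other way, at 55.6, 60.4 and 73 CPM against 100.4, 200.4 and 181 CPM in isotype POD1 and 27.3, 29.1 and 26.7 CPM in isotype POD2 (log2 fold change -1.29 ± 0.36 SE, 95% interval -2.11 to -0.48, adjusted p = 0.223). Tgfbr2, a receptor of TGF-beta, a brake on hepatocyte growth, gave 192, 174 and 233 CPM against 236, 236 and 236 and 76.2, 80.4 and 42.4 CPM (log2 fold change -0.19 ± 0.27 SE, 95% interval -0.80 to 0.42, adjusted p = 0.75).

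Plasma protein genes of hepatocytes had list levels between the isotype days. Of 30 plasma protein genes 0 passed against isotype POD1, all 30 estimates were above 0 and the median was 1.98, beside 0.01 over all genes. In the fit of 3 groups 27 of the 30 were called higher, where 5.41% of all genes were, and with every library separate 0. The mean log2 CPM of the list was 9.38, 9.42 and 9.74 in anti-Gr1 POD2, 7.69, 7.22 and 8.08 in isotype POD1 and 10.73, 10.73 and 10.77 in isotype POD2. Alb (ENSMUSG00000029368, chromosome 5 of GRCm38, bases 90460897 to 90476602) stood at 12143, 12414 and 14585 CPM, at 4252, 3585 and 5406 CPM and at 75606, 75661 and 77127 CPM, with no overlap between the groups (log2 fold change 1.61 ± 1.19 SE, 95% interval -1.10 to 4.32, adjusted p = 0.531). In the fit of 3 groups the adjusted p of Alb against isotype POD1 was 0.016. Kng1, the kininogen of the contact system, stood at 1383, 1438 and 1732 CPM, at 206, 155 and 282 CPM and at 2421, 2465 and 2849 CPM (log2 fold change 2.88 ± 1.14 SE, 95% interval 0.27 to 5.48, adjusted p = 0.309). F10, coagulation factor X, stood at 214, 229 and 281 CPM, at 99.5, 65 and 90.3 CPM and at 540.2, 520.1 and 566 CPM (log2 fold change 1.57 ± 0.57 SE, 95% interval 0.27 to 2.87, adjusted p = 0.282). Alb had reached a smaller part of its isotype POD2 level than Kng1 and F10. Apoc3, an apolipoprotein of triglyceride-rich particles, overlapped with isotype POD1, at 483, 531 and 589 CPM against 403, 316 and 598 and 1507, 1480.2 and 1949 CPM (log2 fold change 0.32 ± 0.63 SE, 95% interval -1.11 to 1.76, adjusted p = 0.82).

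Sums over cell type markers moved beside these genes. Kupffer cell markers (18 tested) summed to 6623 to 9410.4 CPM in anti-Gr1 POD2, 8922 to 12754 CPM in isotype POD1 and 1795 to 2711 CPM in isotype POD2. Sinusoidal endothelial markers (21 tested) summed to 7148 to 11526, 11492 to 14235 and 2882 to 3805 CPM in the same order. In bulk libraries, fewer cells of a type and less RNA per cell cannot be told apart, and the part of these cells in the hepatocyte differences was not tested.

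Drug and bile acid metabolism varied between genes. Of 42 cytochrome P450 and xenobiotic genes 0 passed, with a median of 1.58 against isotype POD1. Along the isotype course 12 were higher, where 12.6% of all genes were. The fit of 3 groups called 28 higher and 1 lower, beside 5.41% and 1.68% of all genes. Cyp3a11, a main drug-metabolising P450, stood at 556, 601 and 1035 CPM in anti-Gr1 POD2, at 204, 194 and 181 CPM in isotype POD1 and at 3609, 3844 and 3159.9 CPM in isotype POD2 (log2 fold change 2.07 ± 1.52 SE, 95% interval -1.41 to 5.54, adjusted p = 0.528). Por, the reductase that feeds electrons to P450 enzymes, stood at 444, 420.0 and 387 CPM, at 146, 139.6 and 174 CPM and at 406, 414 and 421 CPM, close to isotype POD2 in every library (log2 fold change 1.42 ± 0.32 SE, 95% interval 0.69 to 2.15, adjusted p = 0.16). Gstm1, a glutathione transferase, stood below both isotype days, at 136, 124 and 141 CPM against 345, 313 and 297 and 787, 758 and 1061 CPM (log2 fold change -1.23 ± 0.49 SE, 95% interval -2.35 to -0.11, adjusted p = 0.31). Of 24 bile acid genes 0 passed, with a median of 1.38. Cyp7a1, the rate-limiting enzyme of bile acid synthesis, stood at 57.6, 55 and 26.8 CPM against 0.111, 1.05 and 5.65 CPM in isotype POD1 and 45.2, 44.7 and 29 CPM in isotype POD2. It varied widely within isotype POD1, and its difference was 4.19 on the log2 scale (95% interval 0.07 to 8.31, adjusted p = 0.339). Slc27a5, which activates bile acids, gave 217, 225 and 308 CPM against 38.4, 24.1 and 50.5 and 400.1, 400.4 and 459 CPM (log2 fold change 2.81, adjusted p = 0.356).

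Sterol synthesis genes had list levels between the isotype days. Of 25 cholesterol synthesis genes 0 passed against isotype POD1, all 25 estimates were above 0 and the median was 1.21. Along the isotype course 23 rose, where 12.6% of all genes rose. With every library separate 6 were called higher, and in the fit of 3 groups 16, beside 1.52% and 5.41% of all genes. The mean log2 CPM of the list was 5.81, 5.81 and 5.50 in anti-Gr1 POD2, 4.47, 4.19 and 4.62 in isotype POD1 and 6.68, 6.74 and 6.76 in isotype POD2. Msmo1, a sterol demethylase, stood at 157, 162 and 95.1 CPM, at 25.1, 25.6 and 35.9 CPM and at 208, 228 and 230.4 CPM (log2 fold change 2.14 ± 0.51 SE, 95% interval 0.99 to 3.30, adjusted p = 0.178). Replicate 3 was the lowest of its group and still above isotype POD1. Acat2, which makes acetoacetyl-CoA at the start of the pathway, overlapped with isotype POD1, at 23.3, 25 and 18.8 CPM against 24.1, 16.7 and 22.8 and 74.8, 75 and 83.4 CPM (log2 fold change 0.02 ± 0.28 SE, 95% interval -0.62 to 0.66, adjusted p = 0.981).

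Nitrogen and fatty acid metabolism showed medians near 0. Of 38 urea cycle and amino acid genes 0 passed, with a median of 0.00. Along the isotype course 4 rose, where 12.6% of all genes rose. Cps1, which commits ammonia to urea, stood at 1381, 1257 and 1434 CPM in anti-Gr1 POD2, at 316, 322 and 574 CPM in isotype POD1 and at 2760.2, 2877 and 2121 CPM in isotype POD2 (log2 fold change 1.77 ± 1.01 SE, 95% interval -0.54 to 4.08, adjusted p = 0.427). Arg1, which releases urea, stood at 703, 789 and 656 CPM, at 1349.8, 948 and 1459 CPM and at 1121, 1176 and 1048 CPM (log2 fold change -0.83 ± 0.29 SE, 95% interval -1.49 to -0.18, adjusted p = 0.27). Within the same cycle Cps1 thus lay above isotype POD1 and Arg1 below it, each without overlap. Of 32 genes of fatty acid oxidation and ketogenesis 0 passed, with a median of -0.10, and of 20 genes of gluconeogenesis and glycogen 0 passed, with a median of 0.31. Of 24 hepatocyte transcription factors and nuclear receptors 0 passed, with a median of -0.03. Hnf4a stood at 276, 251 and 297 CPM against 353, 175 and 377 and 549, 536 and 484 CPM (log2 fold change -0.11 ± 0.60 SE, 95% interval -1.47 to 1.25, adjusted p = 0.942), and Cebpa at 236, 224 and 204 CPM against 257, 202 and 253 and 245, 238 and 212 CPM (log2 fold change -0.13 ± 0.19 SE, 95% interval -0.57 to 0.32, adjusted p = 0.769). Both factors overlapped with isotype POD1.

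Among 30 tested genes of lipid synthesis and droplets, 1 rose and 0 fell against isotype POD1. That gene was Lpl (ENSMUSG00000015568, chromosome 8 of GRCm38, bases 68880491 to 68907448), lipoprotein lipase, which frees fatty acids from circulating triglyceride. It stood at 438, 416 and 690.3 CPM in anti-Gr1 POD2, at 117, 171 and 143 CPM in isotype POD1 and at 88.3, 88.7 and 88 CPM in isotype POD2. Each library labelled anti-Gr1 POD2 was above each isotype library of either day (log2 fold change 1.96 ± 0.26 SE, 95% interval 1.36 to 2.56, adjusted p = 0.0307), and without replicate 3 the adjusted p was 0.22. Srebf1, the factor of lipid synthesis, stood at 138, 132 and 147 CPM against 54.1, 61.8 and 54.5 and 283, 285 and 328 CPM (log2 fold change 1.31 ± 0.33 SE, 95% interval 0.57 to 2.05, adjusted p = 0.187). Plin2, which coats lipid droplets, stood below isotype POD1, at 319.9, 331 and 302 CPM against 789.6, 492 and 662 and 442, 435 and 358 CPM (log2 fold change -1.04 ± 0.36 SE, 95% interval -1.87 to -0.22, adjusted p = 0.273).

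Of 15 tested major urinary protein genes, the male pheromone carriers made by hepatocytes, 2 fell and 0 rose, with a median of -0.41. Mup17 (ENSMUSG00000096688, chromosome 4 of GRCm38, bases 61591929 to 61595871) stood at 29, 35 and 40.1 CPM in anti-Gr1 POD2, at 175, 184 and 306 CPM in isotype POD1 and at 191, 179.9 and 146 CPM in isotype POD2. It was below every isotype library of both days (log2 fold change -2.61 ± 0.35 SE, 95% interval -3.40 to -1.83, adjusted p = 0.0291). Mup16 stood at 6.93, 8.59 and 11.3 CPM, at 55.9, 52.8 and 90.2 CPM and at 50.8, 51.3 and 38.9 CPM (log2 fold change -2.80 ± 0.35 SE, 95% interval -3.59 to -2.01, adjusted p = 0.0222). These genes are near-identical copies whose reads may be shared, so the split between them is uncertain. Without replicate 3 the adjusted p was 0.22 for Mup17 and 0.145 for Mup16.

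**Figure D2:**
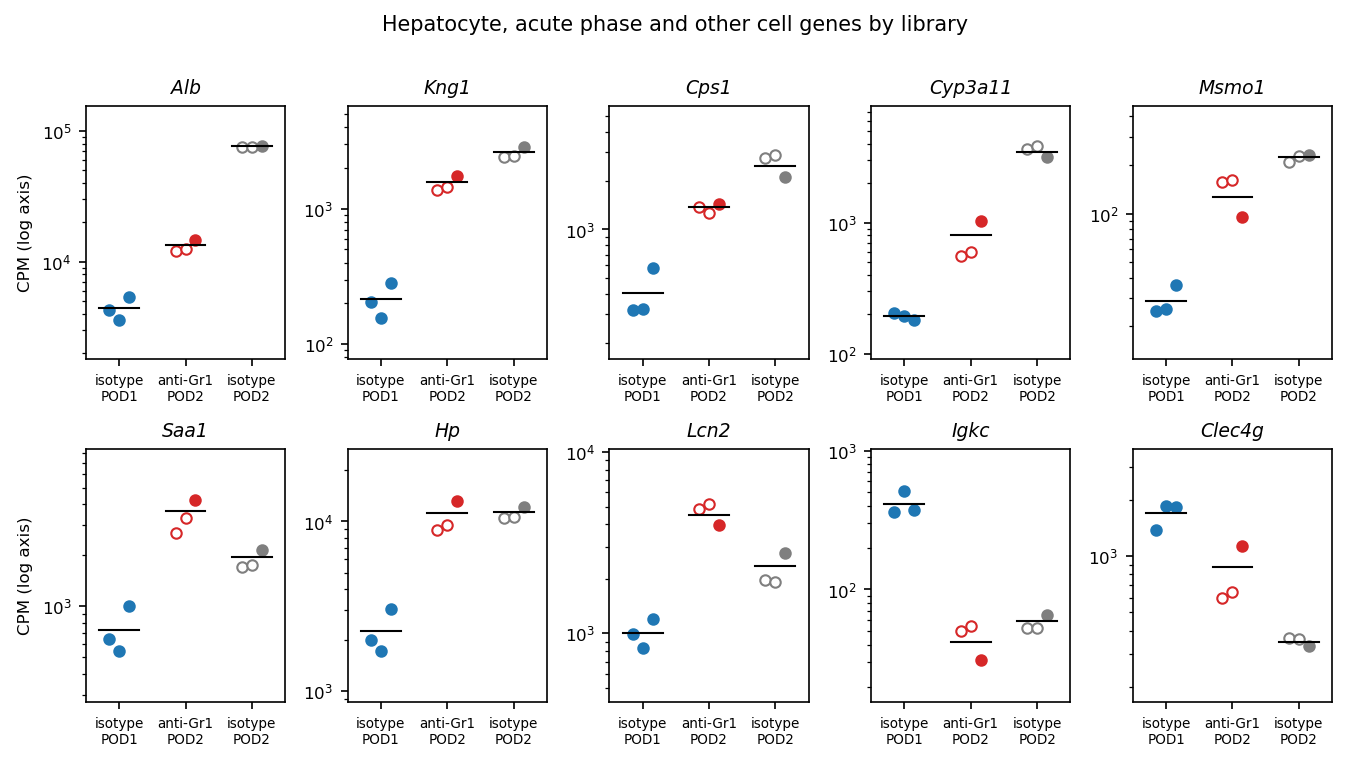
Expression in CPM on log axes of 10 genes of hepatocyte function, the acute phase and other cells, by library, for isotype POD1 (blue), libraries labelled anti-Gr1 POD2 (red) and isotype POD2 (grey). Open points are libraries summed to 1 sample and lines are group means; Alb, Kng1, Cps1, Cyp3a11 and Msmo1 lie between the isotype days, while Saa1 and Lcn2 lie above isotype POD2.

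Acute phase genes, which hepatocytes switch on under IL-6, stood at the level of isotype POD2 or slightly above it. Of 36 genes 0 passed against isotype POD1, with a median of 1.95 and 34 estimates above 0. The fit of 3 groups called 26 higher, beside 5.41% of all genes. The mean log2 CPM of the list was 9.55, 9.58 and 9.91 in anti-Gr1 POD2, 7.94, 7.46 and 8.29 in isotype POD1 and 9.30, 9.28 and 9.31 in isotype POD2. Saa1, serum amyloid A, stood at 2705, 3335 and 4211 CPM, at 637, 543 and 999 CPM and at 1716, 1753 and 2147 CPM (log2 fold change 2.32 ± 0.80 SE, 95% interval 0.51 to 4.13, adjusted p = 0.27). Hp, haptoglobin, stood at 8858, 9483 and 13283 CPM, at 2014, 1721 and 3064 CPM and at 10419, 10574 and 12231 CPM (log2 fold change 2.31 ± 0.92 SE, 95% interval 0.21 to 4.41, adjusted p = 0.31). Lcn2, a siderophore-binding protein made by hepatocytes and neutrophils, stood at 4877, 5171 and 3971 CPM, at 989, 835 and 1207 CPM and at 1962, 1919.8 and 2779 CPM (log2 fold change 2.16 ± 0.39 SE, 95% interval 1.26 to 3.05, adjusted p = 0.0913) and was above the halfway point (log2 fold change 1.54, adjusted p = 0.0438, and 0.209 without replicate 3). Il6ra, the IL-6 receptor chain, stood at 67, 56.9 and 69.1 CPM, at 32.6, 26.9 and 32.9 CPM and at 40.7, 43.7 and 33.2 CPM, above both isotype days in every library (log2 fold change 1.08 ± 0.19 SE, 95% interval 0.65 to 1.52, adjusted p = 0.0861; against the halfway point log2 fold change 0.94, adjusted p = 0.0235, and 0.227 without replicate 3). Socs3, which ends IL-6 signalling, stood at 416, 415 and 379 CPM against 465, 568 and 516 and 325, 326 and 329 CPM (log2 fold change -0.38 ± 0.31 SE, 95% interval -1.08 to 0.32, adjusted p = 0.565).

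Neutrophil transcripts set the libraries labelled anti-Gr1 POD2 apart from isotype POD1 and from isotype POD2. Of 33 tested neutrophil markers 9 rose and 0 fell against isotype POD1, where 0.166% of all genes were called higher. The median was 2.00, with 28 estimates above 0 and 5 below. The list was chosen with earlier results of these data known, so its count beside the share of all genes is description only. Along the isotype course 3 rose and 25 fell, where 12.6% of all genes rose and 19.7% fell. Against the halfway point 23 lay above, where 3.47% of all genes did. Without replicate 3 of anti-Gr1 POD2, 5 were higher and 0 lower, and 13 lay above the halfway point. The list summed to 9619 to 10517 CPM in anti-Gr1 POD2, 2147 to 2669 CPM in isotype POD1 and 2564 to 3469 CPM in isotype POD2, so the sums in anti-Gr1 POD2 lay above those of both isotype days, which overlapped with each other. Lcn2 is in this list as well as among the acute phase genes, and its values given there made up most of the sums in isotype POD2. The overlap of the isotype days therefore holds for the sums and not for the mean log2 CPM of the list. That mean was 6.15 to 6.40 in anti-Gr1 POD2, 3.998 to 4.104 in isotype POD1 and 1.17 to 2.20 in isotype POD2.

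Genes of neutrophil granules were among those that rose. Ngp (ENSMUSG00000032484, chromosome 9 of GRCm38, bases 110419747 to 110423012), neutrophilic granule protein, stood at 454, 466 and 686 CPM in anti-Gr1 POD2, at 9.79, 20 and 20.1 CPM in isotype POD1 and at 2.44, 2.13 and 1.19 CPM in isotype POD2 (log2 fold change 5.11 ± 0.45 SE, 95% interval 4.07 to 6.14, adjusted p = 0.00412). Ltf, lactoferrin, stood at 214, 196 and 298 CPM, at 3.06, 8.2 and 8.53 CPM and at 0.783, 1.36 and 0.716 CPM (log2 fold change 5.25 ± 0.48 SE, 95% interval 4.15 to 6.35, adjusted p = 0.00485). Camp, the cathelicidin precursor, stood at 29.7, 29.6 and 47 CPM, at 1.06, 2.31 and 2.15 CPM and at 0.522, 0.681 and 0.119 CPM (log2 fold change 4.38 ± 0.55 SE, 95% interval 3.12 to 5.65, adjusted p = 0.0272). In each of the 3 genes the libraries labelled anti-Gr1 were far above both isotype days, with no overlap. Ly6g itself gave log2 fold change 4.67 ± 0.48 SE, 95% interval 3.57 to 5.78, adjusted p = 0.00883. Cd177, a surface protein of neutrophils, stood at 103, 107 and 153 CPM, at 9.29, 6.38 and 4.97 CPM and at 1.57, 1.19 and 0.239 CPM (log2 fold change 4.23, adjusted p = 0.0157). Olfm4, a granule protein of a neutrophil subset, stood at 48.7, 49.6 and 55.1 CPM, at 7.12, 3.85 and 2.33 CPM and at 0.783, 0.852 and 0.239 CPM (log2 fold change 3.55, adjusted p = 0.0272). Without replicate 3 the adjusted p was 0.027 for Ngp and 0.0312 for Ltf, and it missed the threshold for Ly6g (0.0551), Camp (0.154), Cd177 (0.136) and Olfm4 (0.156).

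Stefins of granulocytes, inhibitors of cysteine proteases, had log2 fold changes above 6. Stfa2 stood at 139.7, 164 and 117 CPM in anti-Gr1 POD2, at 1.72, 1.12 and 0.921 CPM in isotype POD1 and at 0.87, 0.852 and 0.597 CPM in isotype POD2 (log2 fold change 6.73 ± 0.45 SE, 95% interval 5.71 to 7.75, adjusted p = 0.0013). Stfa3 stood at 87.4, 108 and 69 CPM, at 1.34, 1.26 and 0.737 CPM and at 0.087, 0.17 and 0.239 CPM (log2 fold change 6.23 ± 0.44 SE, 95% interval 5.23 to 7.22, adjusted p = 0.00134). BC100530, in the same cluster on chromosome 16, gave 91.9, 115 and 82.7 CPM against 1.11, 1.05 and 0.982 and 0.435, 0.511 and 0 CPM (log2 fold change 6.47, adjusted p = 0.00376). These are close copies whose reads may be shared. Pglyrp1, a peptidoglycan-binding protein of neutrophil granules, stood at 80, 86.9 and 121 CPM, at 10.9, 10.4 and 9.58 CPM and at 3.05, 2.56 and 2.98 CPM (log2 fold change 3.31 ± 0.22 SE, 95% interval 2.82 to 3.80, adjusted p = 0.0013; without replicate 3 adjusted p = 0.00584). S100a8, a calcium-binding alarmin of neutrophils and monocytes, missed the threshold narrowly, at 972, 1179 and 1211 CPM against 167, 125 and 134 and 23.8, 26.6 and 9.79 CPM (log2 fold change 3.01 ± 0.45 SE, 95% interval 1.98 to 4.04, adjusted p = 0.0558).

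The calls not described above follow, and they may include further granulocyte genes. Mmp12, the elastase of macrophages, rose to 131, 135 and 342 CPM in anti-Gr1 POD2 from 17.9, 12.3 and 9.64 CPM in isotype POD1, beside 5.4, 5.54 and 1.79 CPM in isotype POD2 (log2 fold change 4.16 ± 0.53 SE, 95% interval 2.94 to 5.38, adjusted p = 0.0272), with replicate 3 the highest. Atp6v0d2, a proton pump subunit of macrophages and osteoclasts, rose to 8.72, 7.98 and 15.7 CPM from 0.389, 0.771 and 0.798 CPM, beside 4.7, 4.43 and 2.51 CPM (log2 fold change 4.20 ± 0.43 SE, 95% interval 3.22 to 5.17, adjusted p = 0.00859). Tubb2a (ENSMUSG00000058672, chromosome 13 of GRCm38, bases 34074274 to 34078007), a beta-tubulin, fell to 38, 40.6 and 44.6 CPM from 111, 85.6 and 95.6 CPM, beside 119.9, 114 and 127 CPM in isotype POD2, and was below every isotype library of both days (log2 fold change -1.22 ± 0.17 SE, 95% interval -1.61 to -0.82, adjusted p = 0.0411). Without replicate 3 the adjusted p was 0.136 for Mmp12, 0.0513 for Atp6v0d2 and 0.243 for Tubb2a. The remaining 14 of the 30 called genes, listed after their values were seen, were 4930438A08Rik, BC117090, Itgb2l, Ceacam10, Lin28a, Ifitm6, Mmp25, Ifnlr1, Neat1, F630028O10Rik, Fry, Akap9, Golgb1 and, lower, Ighv6-6, of which BC117090, Itgb2l and Ifitm6 were called without replicate 3. BC117090 (chromosome 16, bases 36321665 to 36334332) lies near BC100530 (bases 36359382 to 36367748), given above with the stefins. F630028O10Rik may lie antisense to another gene, and whether the counting used strand is not given in these sources.

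Interferon-stimulated genes also stood above both isotype days. Of 42 genes 0 passed against isotype POD1, with a median of 0.70 and 39 estimates above 0, but 20 lay above the halfway point and 0 below, where 3.47% of all genes lay above. Without replicate 3 of anti-Gr1 POD2 0 of them lay above it. Against isotype POD1, 9 were called higher with every library separate and 16 in the fit of 3 groups, beside 1.52% and 5.41% of all genes. The mean log2 CPM of the list was 5.44, 5.43 and 5.46 in anti-Gr1 POD2, 4.82, 4.69 and 4.68 in isotype POD1 and 4.31, 4.35 and 3.67 in isotype POD2. Ifit3, which binds viral RNA complexes, stood at 21.9, 22.1 and 16 CPM, at 8.34, 7.92 and 7.74 CPM and at 7.75, 8.77 and 4.18 CPM (log2 fold change 1.25 ± 0.29 SE, 95% interval 0.59 to 1.91, adjusted p = 0.171; against the halfway point log2 fold change 1.42, adjusted p = 0.024). Oas1g, of the oligoadenylate synthetase family, stood at 15.3, 16.1 and 18.7 CPM, at 7.18, 7.64 and 7.74 CPM and at 4.0, 4.94 and 2.39 CPM (log2 fold change 1.19 ± 0.28 SE, 95% interval 0.55 to 1.83, adjusted p = 0.173). Both separated the libraries labelled anti-Gr1 POD2 from every isotype library. Tap1, a peptide transporter of antigen presentation, stood at 54.3, 50.2 and 60.8 CPM, at 27.7, 28.6 and 28.2 CPM and at 34.6, 39 and 30.6 CPM (log2 fold change 1.00 ± 0.16 SE, 95% interval 0.63 to 1.38, adjusted p = 0.0726). Mx1, an antiviral GTPase, stood at 10.7, 10 and 9.1 CPM, at 5.06, 3.5 and 3.99 CPM and at 1.83, 1.28 and 0.835 CPM and was above the halfway point (log2 fold change 2.08, adjusted p = 0.0121, and 0.0935 without replicate 3).

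Promoters of Ifit3 and Oas1g are shown because these genes lay above the halfway point together. The windows (Ifit3 at chr19:34583279-34583578, plus strand; Oas1g at chr5:120887564-120887863, minus strand) come from RefSeq on GRCm38.p6, and capitals mark GAAA, any 2 bases and GAAA again, the core letters of the interferon-stimulated response element, on either strand, with overlapping matches joined.
Ifit3: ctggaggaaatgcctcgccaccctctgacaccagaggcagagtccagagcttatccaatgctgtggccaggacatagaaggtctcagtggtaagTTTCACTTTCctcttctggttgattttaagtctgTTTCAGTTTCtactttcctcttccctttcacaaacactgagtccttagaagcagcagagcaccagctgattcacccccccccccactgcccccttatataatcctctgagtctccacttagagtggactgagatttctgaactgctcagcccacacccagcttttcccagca
Oas1g: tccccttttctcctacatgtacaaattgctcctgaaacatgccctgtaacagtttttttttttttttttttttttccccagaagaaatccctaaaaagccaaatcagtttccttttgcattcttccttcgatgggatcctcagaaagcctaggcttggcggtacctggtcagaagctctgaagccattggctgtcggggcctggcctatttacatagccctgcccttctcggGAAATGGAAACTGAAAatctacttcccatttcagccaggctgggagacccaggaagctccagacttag
This motif was found in 18 of 31 matched promoters of the list (58.1%), in 3.33% of 30 matched neutrophil promoters and in 3.49% of all 27025. The window of Tap1, named above, did not hold it. As above, this describes letters only.

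**Figure D3:**
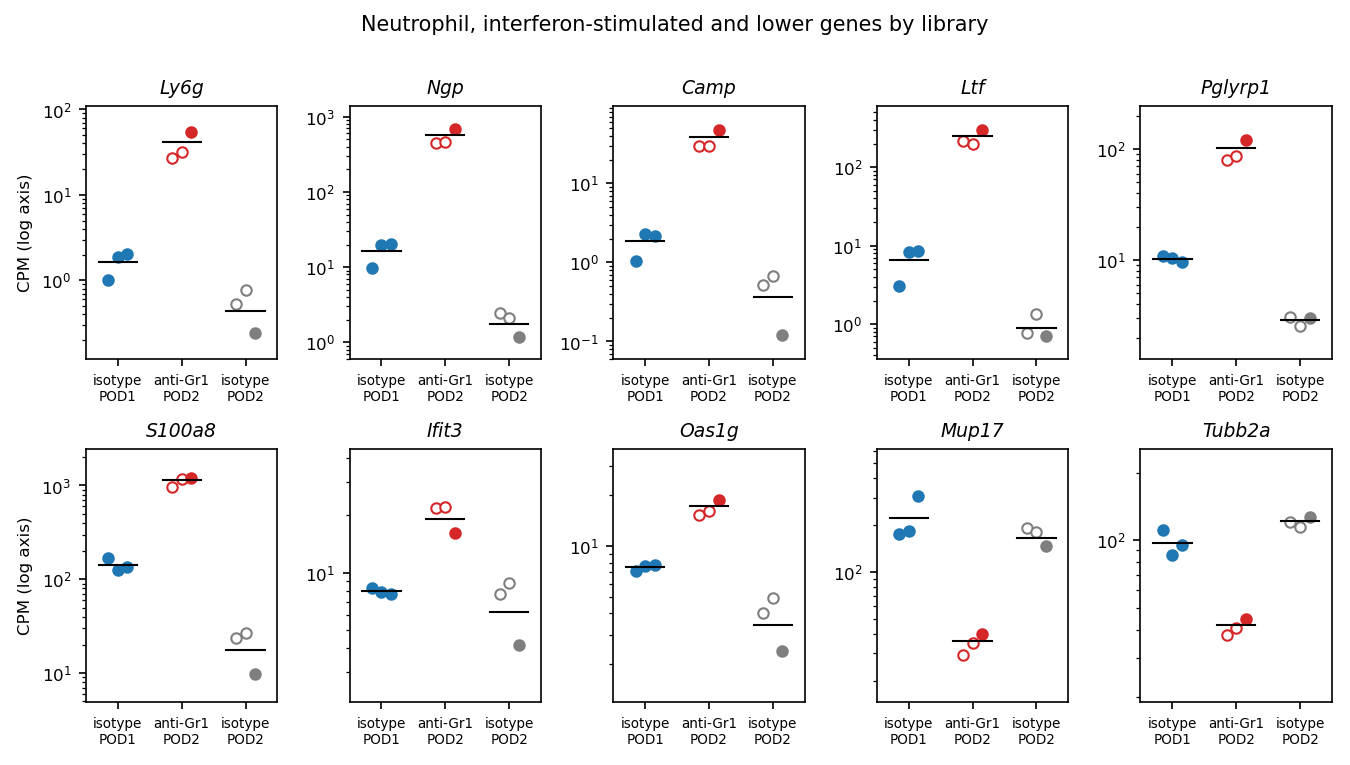
Expression in CPM on log axes of 10 genes by library, for isotype POD1 (blue), libraries labelled anti-Gr1 POD2 (red) and isotype POD2 (grey). Open points are libraries summed to 1 sample and lines are group means; the first 8 genes lie above, and Mup17 and Tubb2a below, both isotype days in the red points.

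Markers of other cells gave 0 calls against isotype POD1 in each of these lists. Monocyte and macrophage markers (23 tested) had a median of 0.29, with 7 above the halfway point (1 without replicate 3 of anti-Gr1 POD2) and 20 lower along the isotype course. Ly6c2, a monocyte antigen with close paralogs, stood at 19.9, 22 and 25 CPM in anti-Gr1 POD2, at 10.3, 9.18 and 9.09 CPM in isotype POD1 and at 3.57, 3.32 and 1.79 CPM in isotype POD2 (log2 fold change 1.27 ± 0.23 SE, 95% interval 0.75 to 1.79, adjusted p = 0.0864). Gpnmb, of lipid-associated macrophages, stood at 27.4, 27.5 and 34 CPM, at 3.45, 2.66 and 3.25 CPM and at 4.0, 4.68 and 0.716 CPM (log2 fold change 3.29 ± 0.65 SE, 95% interval 1.80 to 4.78, adjusted p = 0.117). Kupffer cell markers had a median of -0.72 and 17 of 18 fell along the isotype course, where 19.7% of all genes fell. Timd4, of resident Kupffer cells, stood between the isotype days at 59.3, 54.2 and 68 CPM against 109.9, 165 and 126 and 31.1, 33.5 and 24.6 CPM (log2 fold change -1.10 ± 0.30 SE, 95% interval -1.79 to -0.42, adjusted p = 0.221). Sinusoidal endothelial markers had a median of -0.46, and all 21 fell along the isotype course. Clec4g, a lectin of these cells, stood at 598, 642 and 1131 CPM against 1385, 1868 and 1839.7 and 367, 361 and 330.4 CPM (log2 fold change -0.95 ± 0.34 SE, 95% interval -1.73 to -0.17, adjusted p = 0.278). T and NK cell markers (23 tested) had a median of -1.09, stellate cell markers (23) 0.00, platelet markers (15) 0.55 and cholangiocyte markers (15) 0.74.

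The antibody genes Igkc and Jchain stood near their isotype POD2 level. Of 22 tested B cell and plasma cell markers 21 estimates were below 0, with a median of -1.62, and 0 passed. With every library separate 10 were called lower, where 1.21% of all genes were. The fit of 3 groups called 10 lower and 1 higher, beside 1.68% and 5.41% of all genes. Igkc, the kappa light chain, stood at 49.9, 54.3 and 30.9 CPM in anti-Gr1 POD2, at 361, 509 and 376 CPM in isotype POD1 and at 52.5, 52.6 and 66 CPM in isotype POD2 (log2 fold change -3.32 ± 0.60 SE, 95% interval -4.69 to -1.95, adjusted p = 0.0913). Jchain, which joins IgA and IgM units, stood at 8.25, 8.59 and 5.46 CPM, at 67.3, 82.1 and 58.5 CPM and at 7.49, 9.11 and 6.21 CPM (log2 fold change -3.31 ± 0.55 SE, 95% interval -4.57 to -2.05, adjusted p = 0.0818). In both genes every isotype POD1 library was above all others. Erythroid markers (14 tested) had a median of -4.16, 0 passed, and their sum in isotype POD1 ran from 1505 to 14014 CPM against 213 to 329 CPM in anti-Gr1 POD2. Alas2, the erythroid enzyme of heme synthesis, gave 26.2, 26.2 and 36 CPM against 178, 687 and 104 CPM in isotype POD1 and 74.2, 79.7 and 54.1 CPM in isotype POD2. Erythroid transcripts thus varied within isotype POD1, and replicate 2 was the highest. Pancreatic acinar genes had a median of 1.11 (41 tested) and islet genes 1.20 (13 tested), with 0 calls each.

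**Figure D4:**
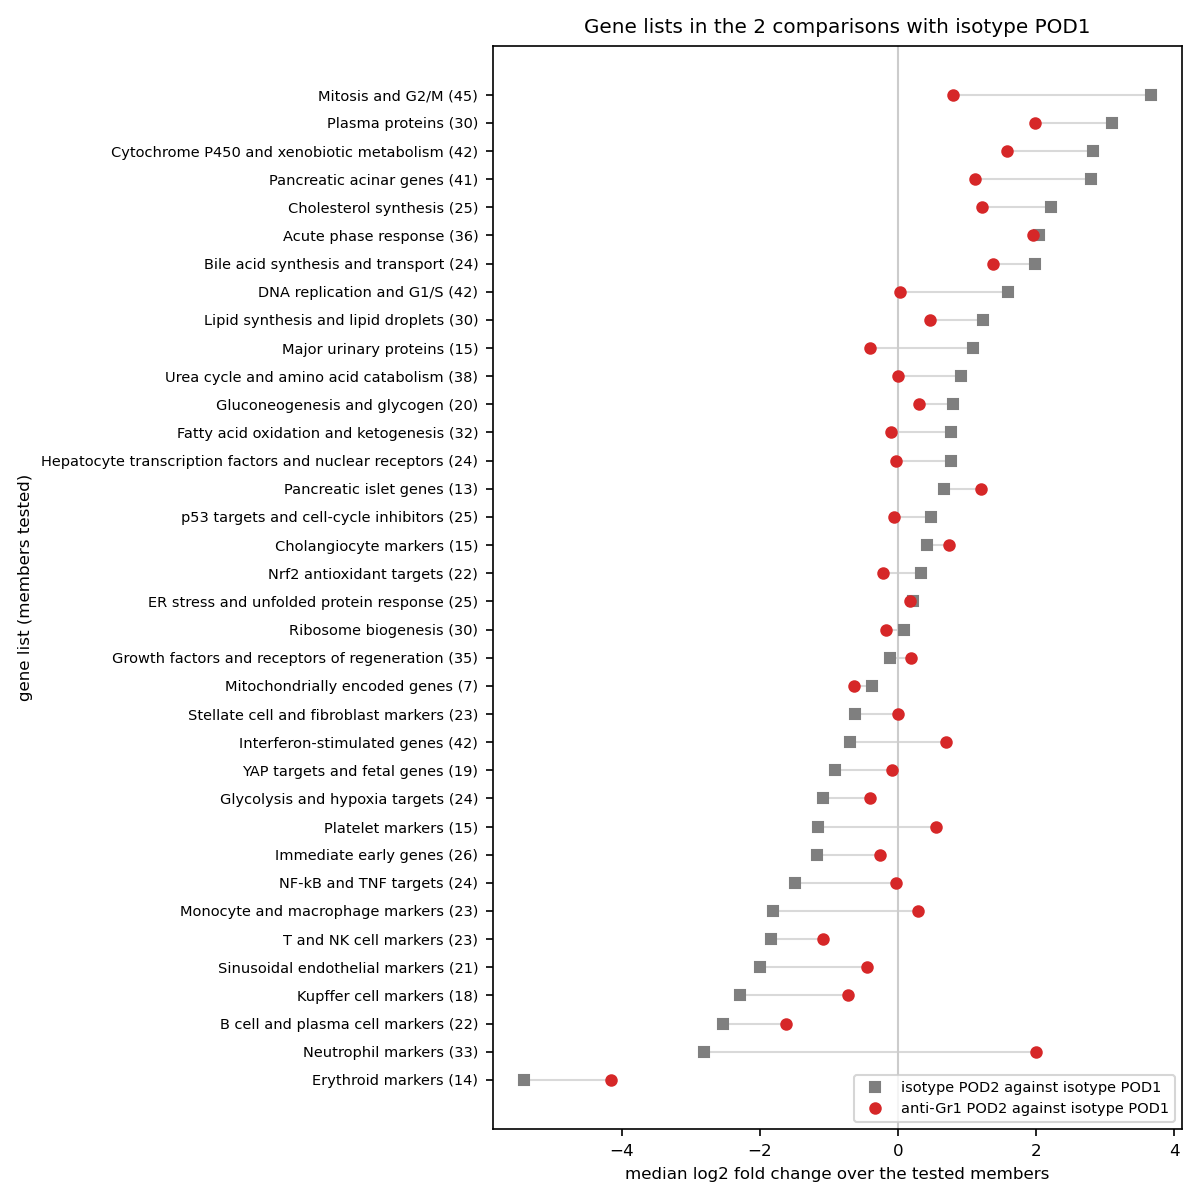
Median log2 fold change of each gene list, with the number of members tested in brackets, for libraries labelled anti-Gr1 POD2 against isotype POD1 (red) and for isotype POD2 against isotype POD1 (grey squares), which share the isotype POD1 samples. DNA replication lies at 0.02 against 1.60, mitosis at 0.80 against 3.66, acute phase at 1.95 against 2.04 and neutrophil markers at 2.00 against -2.81.

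Genes at the isotype POD1 level were also taken by rule, as a description, among genes called both along the isotype course and between the groups of POD2. Of those higher along the course, Aen, a p53-induced exonuclease, stood at 20.9, 21 and 19.4 CPM in anti-Gr1 POD2, at 21.5, 20.2 and 18.8 CPM in isotype POD1 and at 40.2, 43.4 and 33.5 CPM in isotype POD2. Hmgb1, a chromatin protein, stood at 8.02, 8.52 and 9.25 CPM, at 8.62, 9.25 and 8.41 CPM and at 11.5, 13.2 and 13.7 CPM. Of those lower along the course, Notch1, a receptor of cell fate, stood at 72.1, 54.4 and 87.1 CPM, at 89.2, 65.9 and 69.4 CPM and at 32.9, 35.3 and 24.2 CPM. Adamts1, a secreted protease, stood at 139.5, 128 and 145 CPM, at 126, 165 and 127 CPM and at 43.2, 46.7 and 29.1 CPM. Each overlapped with isotype POD1 and not with isotype POD2. The rule that picked these genes fixes that placing in advance, as it does intervals centred near 0, so neither is a result. The other members were Cd2bp2, Cwf19l1, Elac2 and Gpaa1 among the higher and Apobec3, Crlf3, Pip5k1c and Zfp36l2 among the lower. Their 95% intervals against isotype POD1 reached from -0.29 to 0.30 for Cd2bp2 to -0.85 to 0.85 for Adamts1.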

How the data were processed

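Poly A RNA was sequenced in 12 libraries, 3 per combination of antibody and day. The authors deposited raw counts of reads for each gene. The tools in the submitters' processing notes are cutadapt, STAR, HTSeq and DESeq2, with no version, and the build is GRCm38. Each of the 12 columns was tied to a sample by its label. GENCODE M21 gave coordinates for 18208 of 18227 genes.

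Counts were tested with edgeR 4.0.16 (R 4.3.3): filterByExpr left 15647 genes, libraries were scaled by TMM (factors 0.622 to 1.25), and all 4 groups entered 1 robust quasi-likelihood fit. Near-identical libraries of a group (chi-square per gene under 10) were summed, which gave 10 samples. Adjusted p-values follow Benjamini-Hochberg over all genes tested, with a threshold of 0.05. Log2 CPM used a prior count of 1. Totals of 13189392 to 15822043 counts limit low genes, and counting error is included in the fit. The procedure was run on simulated data with the same spread for every gene and group. That run cannot tell how it behaves where groups differ in spread.

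The comparison, the gene lists and the summing of libraries were chosen with earlier results of these data known. Genes were named by rule: up to 12 called genes per direction whose groups do not overlap; up to 4 per list with the smallest p against isotype POD1 and 2 against the halfway point; a set of regeneration genes; and 6 per direction closest to isotype POD1. Alternatives were DESeq2 1.42.0, other scalings and filters, separate libraries, a replicate block, 3 groups only, and leaving out each library. A member of the cholesterol synthesis list is not reported here by name.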

Additional observations from a re-analysis of the deposited data

How the results depend on the processing

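Genes past the threshold between the libraries labelled anti-Gr1 POD2 and isotype POD1 numbered 30. They were 418 with every library separate, 272 in that fit without the third anti-Gr1 POD2 library, 151 with the replicate block, 98 without the near-identical pair across days, 355 with DESeq2 and 1085 with only 3 groups. With no filter they were 32, without scaling 25 and without acinar genes 29. Leaving out 1 library gave 4 to 30: 10 without replicate 3 of anti-Gr1 POD2, and 10, 4 and 9 without isotype POD1 replicates 1, 2 and 3.

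Against the halfway point between the isotype days there were 717 genes, and 3213, 1595, 2494, 76, 1874 and 3040 under the first 6 alternatives in the same order. Without scaling there were 225. The share above was 75.7%, 47.4% with DESeq2 and 62.1% without acinar genes. Leaving out 1 library gave 47 to 937.

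Along the isotype course 5058 genes passed, and leaving out 1 library gave 1587 to 4993, the lowest without isotype POD2 replicate 3. On the same day 3960 passed, 6404 with every library separate, 5980 with the replicate block and, added after seeing the data, 6208 with 3 groups and 1650 without the cross-day pair. Leaving out 1 library gave 806 to 4040, with 1083 without anti-Gr1 POD2 replicate 3 and 806 without isotype POD2 replicate 3. The cause of these shifts was not tested.

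Of the 16 named genes called, 16 were called in each of the fits with separate libraries, with the replicate block and with DESeq2, 12 without scaling, 6 without anti-Gr1 POD2 replicate 3, and 7, 3 and 6 without isotype POD1 replicates 1, 2 and 3. None of these 16 genes changed direction. The fits with separate libraries, the replicate block and DESeq2 called 151 to 418 genes in all, against 30. Keeping the 16 there was thus likely beforehand. Of 36 list medians, 9 changed sign under at least 1 of 12 alternatives: DNA replication (-0.25 to 0.12), stellate cells (-0.27 to 0.06), urea cycle (-0.28 to 0.28), YAP targets (-0.38 to 0.17), ER stress (-0.08 to 0.40), growth factors (-0.07 to 0.19), hepatocyte transcription factors (-0.29 to 0.05), NF-kB targets (-0.29 to 0.01) and p53 targets (-0.31 to 0.01). Of 431 list medians under alternatives, 387 moved by less than the spread and 44 by more. Without replicate 3 of anti-Gr1 POD2 the median was 1.64 for acute phase genes and 1.79 for plasma proteins. It was 1.46 for cytochrome P450 genes and 1.22 for cholesterol synthesis. The replicate numbers are shared between groups, and same-numbered libraries deviated together by correlations of 0.0914, 0.183 and 0.196. Anti-Gr1 POD2 replicate 1 correlated slightly more with isotype POD1 replicate 2 (0.113). Replicates 1 and 2 of anti-Gr1 POD2 were near-identical, so the check cannot separate those numbers. Whether same-numbered samples were paired cannot be told from it. The mean distance to isotype POD2 exceeded that to isotype POD1 by 0.272, by 0.301 without acinar genes and by 0.262 with a prior count of 5.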

Other observations

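Lists of growth and stress not described above gave 0 calls against isotype POD1. Of 30 ribosome biogenesis genes 23 estimates were below 0, with a median of -0.17. Nop16, a nucleolar assembly factor, gave 27.1, 29.6 and 29.5 CPM in libraries labelled anti-Gr1 POD2, with 39.6, 41.4 and 37.9 CPM in isotype POD1 and 44.0, 47.6 and 63.1 CPM in isotype POD2, below both isotype days (log2 fold change -0.45 ± 0.17 SE, 95% interval -0.83 to -0.08, adjusted p = 0.282). Of 24 glycolysis and hypoxia genes 19 estimates were below 0, with a median of -0.41. Eno1, enolase, stood at 41.7, 40.4 and 41.9 CPM, at 78.6, 77.3 and 79.5 CPM and at 70.0, 70.3 and 81.1 CPM, below every isotype library (log2 fold change -0.92 ± 0.23 SE, 95% interval -1.44 to -0.40, adjusted p = 0.187), while Pfkfb4, which raises the glycolytic activator fructose 2,6-bisphosphate, was above the halfway point (log2 fold change 1.58, adjusted p = 0.00846, and 0.0976 without replicate 3). ER stress genes (25 tested) had a median of 0.17, Nrf2 targets (22) -0.22, YAP targets and fetal genes (19) -0.09 and mitochondrially encoded genes (7) -0.64. Afp, the fetal counterpart of albumin, stood at 2.80, 3.07 and 2.11 CPM against 2.84, 1.89 and 3.62 and 18.3, 16.8 and 11.6 CPM (log2 fold change -0.13 ± 0.35 SE, 95% interval -0.93 to 0.67, adjusted p = 0.873). G6pdx, which makes NADPH, was above the halfway point, at 112, 111 and 147 CPM against 70.7, 80.2 and 75.5 and 23.9, 22.5 and 19.3 CPM (log2 fold change 1.69, adjusted p = 0.0042, and 0.0684 without replicate 3).

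The libraries labelled anti-Gr1 POD1, which enter no contrast here but are part of the main fit, carried the leading genes too. Ngp stood there at 1155, 1099 and 665 CPM, Ly6g at 43.8, 24.5 and 57.7 CPM, Mup17 at 29.7, 28.6 and 46.6 CPM and Tubb2a at 42.3, 39.3 and 49.2 CPM. The last value of each gene is from replicate 3, which was near-identical to replicate 3 of anti-Gr1 POD2 (chi-square per gene 3.51). It therefore adds no separate observation.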
